A study of Mus musculus with 6 samples.

Results

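Srp54a, Srp54b and Srp54c are near-identical mouse genes that lie in tandem on chromosome 12 and encode SRP54, a subunit of the signal recognition particle. They were taken by their Ensembl identifiers (ENSMUSG00000073079, ENSMUSG00000112449 and ENSMUSG00000079108), and all 3 were found among the 78298 genes of the table and were fitted. They were followed up because earlier work on these same libraries had named Srp54b among the genes that were lower in Top2b-low brains. Its difference, and those of the other copies in that contrast, are therefore described and not tested.

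Polyadenylated RNA was sequenced from the left brain of 3 Top2b-low and 3 wild-type males, with a library for each. Top2b is the gene of topoisomerase IIβ, which relieves DNA tangles and supercoils in neurons. Top2b-low mice, labelled Top2b-L (Homo), were homozygous for an auxin-inducible degron, a tag for protein degradation, added by CRISPR/Cas9 at the beginning of the coding part of Top2b. No mouse received a compound, and the comparison asked what lowered Top2b expression does to the transcriptome of the adult brain. The labels give ages of both 10 weeks and 3.5 months and do not settle between them. They also name the library of Top2b-low replicate 3 with the ending dNdN, where replicates 1 and 2 end in Homo, without saying what that means.

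Secreted and membrane proteins are brought to the endoplasmic reticulum (ER) by the signal recognition particle, a complex of proteins on an RNA scaffold. SRP54 is its GTPase: it binds the signal sequence as this leaves the ribosome and docks on the SRP receptor, after which the ribosome is handed to the Sec61 channel. Neurons depend on this route for receptors, channels and secreted peptides.

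The sequences set a limit on how the copies can be told apart, so they come first. In GENCODE vM21, the annotation used here for sequence, the longest transcript had 4498 bases for Srp54a, 3646 for Srp54b and 3642 for Srp54c, each with 16 exons on the plus strand and a coding sequence of 1512 bases. That annotation is of GRCm38, while the table was made on mm39. The coding sequences of Srp54a and Srp54b were identical at all 1512 positions. Srp54c differed from both at 6 positions, which, counted from the A of the start codon and with the Srp54a base first, were T501C in exon 8, T945C, G946A and T965G in exon 11, and A1197T and G1249A in exon 14. The coding positions 933 to 977 hold 3 of them and are shown because they are among the few places where a coding read can be given to Srp54c, with the differing bases in capitals:
Srp54b: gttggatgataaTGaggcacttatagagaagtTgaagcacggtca
Srp54a: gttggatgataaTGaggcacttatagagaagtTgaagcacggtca
Srp54c: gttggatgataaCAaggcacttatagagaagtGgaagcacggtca
The coding positions 1185 to 1261, with 2 more, show the same division, in which no base separates Srp54a and Srp54b:
Srp54b: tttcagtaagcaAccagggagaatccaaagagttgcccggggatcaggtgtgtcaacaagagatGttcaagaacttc
Srp54a: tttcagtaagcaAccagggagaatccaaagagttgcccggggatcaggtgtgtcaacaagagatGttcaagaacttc
Srp54c: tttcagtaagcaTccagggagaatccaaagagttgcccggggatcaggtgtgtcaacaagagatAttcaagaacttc

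Outside the coding sequence the likeness ran the other way. The 5′ UTR of Srp54b was identical to that of Srp54c over 509 bases, and both differed from Srp54a by 11 substitutions and 2 gap bases. The 3′ UTR of Srp54a was identical to that of Srp54c over the 1621 bases they share, and Srp54b carried 4 extra bases there. Srp54b thus had the coding sequence of Srp54a and the 5′ UTR of Srp54c, and only those 4 bases of the 3′ UTR were its own. Of the 100-base windows along its transcript, 58 of 3547 (1.64%) occurred in no transcript of the other copies. For Srp54c this was 372 of 3543 (10.5%), and for Srp54a, whose annotated 3′ UTR is longer, 1229 of 4399 (27.9%). With windows of 150 bases the shares were 3.09% for Srp54b, 14.9% for Srp54c and 29.5% for Srp54a. Neither the read length nor the setting for reads that match several copies is given in the sources used here, so the split of reads between copies is uncertain in every library. No transcript of another gene among the 141767 of that annotation shared an exact 50-base window with the copies. The sum of the 3 copies does not depend on how shared reads were divided among them. It would still depend on whether such reads were counted at all, which is not known here.

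**Figure D1:**
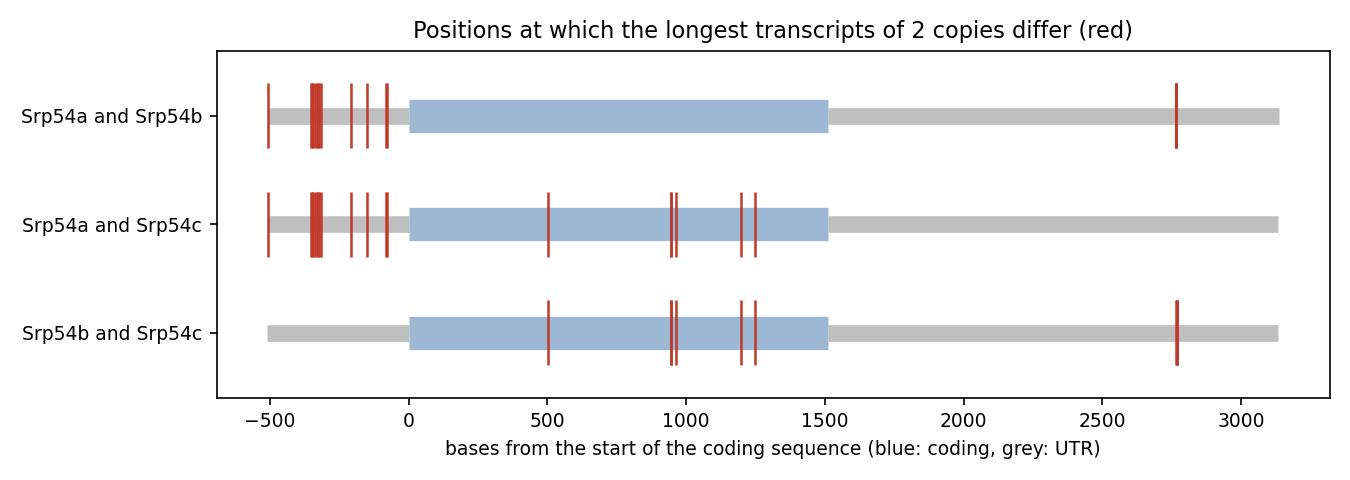
Positions (red) at which the longest GENCODE vM21 transcripts of each pair of copies differ, in bases from the start of the coding sequence, with the coding sequence in blue and the UTRs in grey, drawn over the length both transcripts share. Srp54a and Srp54b differ in the UTRs alone, and Srp54b and Srp54c at 6 coding positions and at 1 place in the 3′ UTR.

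The libraries held 17237421, 17413959 and 35246703 reads in Top2b-low replicates 1 to 3 and 17348164, 16963067 and 28629911 in wild type replicates 1 to 3, where reads are whole-number counts recovered from the deposited normalised counts. Top2b itself had 2152, 2314 and 1965 normalised counts in Top2b-low mice, against 3160, 3014 and 2485 in wild type. Even so, Top2b did not pass limma's test between the genotypes (log2 fold change −0.42, SE 0.11, adjusted p = 0.99997). The neuronal, glial and myelin markers Snap25, Aqp4 and Mbp were high in all 6 libraries, the lowest of these values being 2463. Replicate 3 of each genotype, the pair whose library names begin with N22, had almost no cerebellar transcripts: the summed level of 4 cerebellar markers was 23.1 in Top2b-low replicate 3, 33.4 in wild type replicate 3 and 10049 to 12996 in the other 4 libraries. The summed level of 5 hypothalamic markers was 56.2 to 973 in Top2b-low mice, against 1063 to 1648 in wild type. In bulk tissue, fewer cells of a type and less RNA per cell cannot be told apart.

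Srp54b was lower in Top2b-low brains, Srp54a and Srp54c were on average a little higher, and the sum of the copies was nearly equal. Srp54b had 1147, 1118 and 1211 normalised counts in Top2b-low replicates 1 to 3, against 1346, 1626 and 1837 in wild type replicates 1 to 3. Every Top2b-low library was below every wild-type library, and the wild-type libraries were spread much more widely. It averaged 1159 ± 47.6 in Top2b-low and 1603 ± 246 in wild type (SD, n = 3 each), a change of the mean by −27.7%. On the log2 scale this was −0.46 (SE 0.12). Groups that did not overlap, with Top2b-low lower, occurred in 3.04% of the 17391 genes fitted, and since Srp54b was chosen on this contrast nothing is read from that count.

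Srp54a, the copy with the longest annotated 3′ UTR, had 2142, 2183 and 2127 normalised counts in Top2b-low mice, against 2203, 1995 and 1646 in wild type. The groups overlapped, since wild type replicate 1 had the highest value of all 6. Srp54c, the copy with its own coding positions, had 1404, 1514 and 1470 normalised counts in Top2b-low mice, against 1430, 1320 and 1091 in wild type. Here too wild type replicate 1 lay among the Top2b-low libraries and wild type replicate 3 stood lowest. The log2 fold changes were 0.15 (SE 0.11) for Srp54a and 0.20 (SE 0.11) for Srp54c. Without wild type replicate 3 they were 0.04 and 0.09, while that of Srp54b was −0.35.

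The sum of the copies had 4693, 4815 and 4808 normalised counts in Top2b-low mice, against 4979, 4940 and 4574 in wild type. The groups overlapped, and the lowest library reached 91.9% of the highest, where for Srp54b alone it reached 60.9%. Means were 4772 ± 68.2 in Top2b-low and 4831 ± 224 in wild type (SD, n = 3 each). Fitted as 1 gene, the sum changed by −0.02 on the log2 scale (SE 0.07), with a 95% interval from −11.5% to 10.4%. On a per-length scale, in normalised counts per kilobase of the longest transcript, Srp54b stood at 318 in Top2b-low and 440 in wild type. Srp54a stood at 478 in Top2b-low and 433 in wild type, and Srp54c at 402 in Top2b-low and 351 in wild type. Per length, Srp54b was thus the lowest of the copies in Top2b-low mice, and in wild type it was close to Srp54a, within the spread between libraries. The length of Srp54a takes in an annotated 3′ UTR of 2479 bases, against 1625 for Srp54b. Whether these brains use all of it was not checked, and a shorter one would raise the per-length value of Srp54a.

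**Figure D2:**
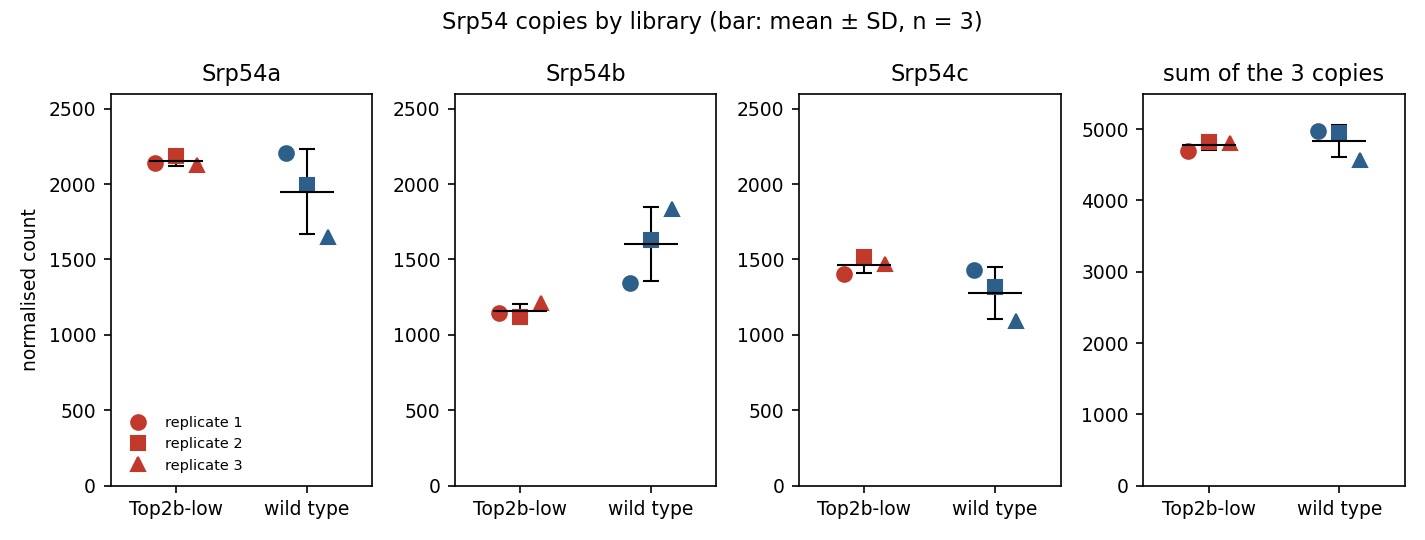
Normalised counts of each copy and of their sum in every library, Top2b-low in red and wild type in blue, with the mean and SD of 3 libraries. The 3 Top2b-low values of Srp54b lie between 1118 and 1211, below all wild-type values, while the sums of the groups overlap.

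Reads were divided differently among the copies in the libraries. Of the reads of the 3 copies, Srp54b took 24.4% (95% exact binomial interval 23.1 to 25.8, 3814 reads), 23.2% (21.9 to 24.6, 3966 reads) and 25.2% (24.2 to 26.1, 8127 reads) in Top2b-low replicates 1 to 3. In wild type replicates 1 to 3 it took 27.0% (25.7 to 28.4, 4099 reads), 32.9% (31.4 to 34.4, 3942 reads) and 40.2% (39.0 to 41.4, 6431 reads). The intervals cover counting error only. They take the copy of each read as known, though most of the Srp54b transcript is shared with the other copies. They are thus too narrow for the uncertainty of the split. Intervals that do not overlap do not by themselves show that shares differ. The intervals of the Top2b-low libraries overlap, those of replicates 2 and 3 only from 24.2 to 24.6, and overlap does not show that they agree within counting error. The intervals of the wild-type libraries do not overlap each other, and that of wild type replicate 1 overlaps those of Top2b-low replicates 1 and 3. The mean share was 24.3 ± 0.99% in Top2b-low and 33.4 ± 6.58% in wild type (SD, n = 3 each), a difference of −9.08 percentage points. Without wild type replicate 3 it was −5.68 points, and in the 4 libraries outside N22 −6.14 points.

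Where the share of Srp54b was high, the shares of both other copies were low, and the proportion of these 2 to each other hardly moved. The share of Srp54a was 45.1 ± 0.74% in Top2b-low and 40.2 ± 4.14% in wild type, and that of Srp54c was 30.6 ± 0.77% in Top2b-low and 26.4 ± 2.44% in wild type (SD, n = 3 each). The shares of Srp54c did not overlap between the groups and were higher in Top2b-low, while its normalised counts overlapped. The 3 shares add up to the whole, so these differences restate that of Srp54b. Among the reads of Srp54a and Srp54c alone, by contrast, Srp54a took 60.4%, 59.0% and 59.1% in Top2b-low replicates 1 to 3 and 60.6%, 60.2% and 60.1% in wild type replicates 1 to 3. The 95% exact binomial intervals of all 6 libraries overlap, from 57.3 at the lowest to 62.4 at the highest. They too take the copy of each read as known. Srp54a and Srp54b, whose coding sequences are identical, varied in proportion: Srp54b took 34.9%, 33.9% and 36.3% of their joint reads in Top2b-low mice, against 37.9%, 44.9% and 52.7% in wild type. Their joint normalised count was 3289, 3301 and 3338 in Top2b-low mice, against 3549, 3621 and 3483 in wild type. Here the groups did not overlap, with Top2b-low lower, as in 3.04% of all genes fitted. The joint count holds Srp54b, which was chosen on this contrast, so nothing is read from that.

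**Figure D3:**
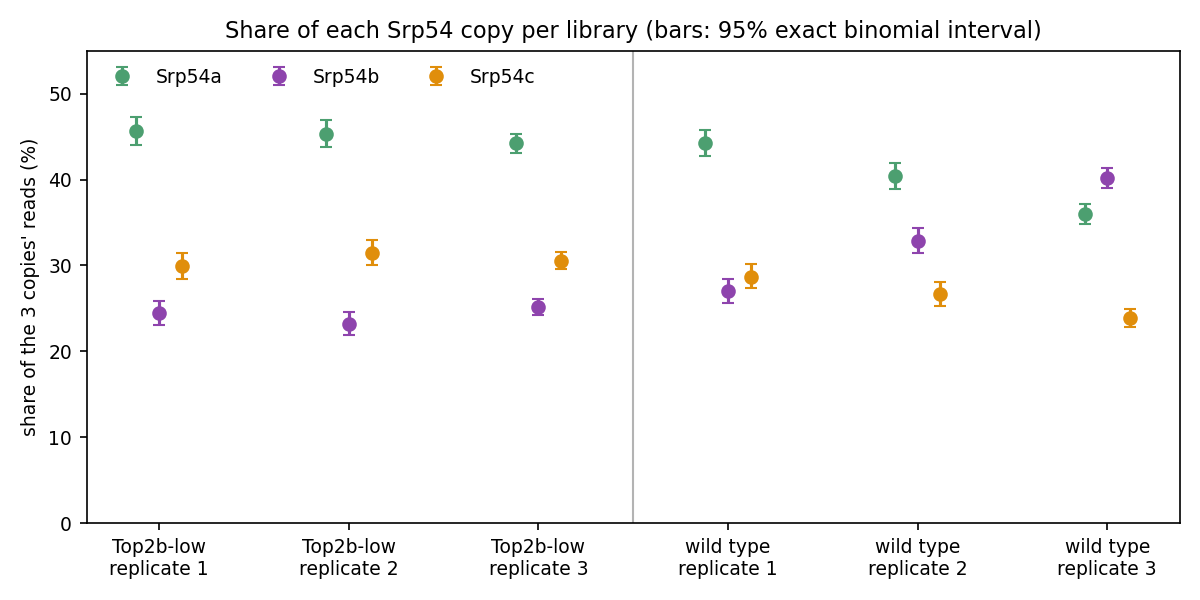
Share of the reads of the 3 copies given to each copy in every library, in percent, with 95% exact binomial intervals that take the copy of each read as known. Srp54b takes 23.2 to 25.2% in the Top2b-low libraries and 27.0, 32.9 and 40.2% in wild type replicates 1 to 3, and Srp54a and Srp54c are lower together where Srp54b is high.

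Both N22 libraries were nearly without cerebellar transcripts, but they divided the reads differently. Top2b-low replicate 3 gave Srp54b 25.2%, within 2 percentage points of the other Top2b-low libraries, while wild type replicate 3 gave it 40.2%. Between the N22 libraries and the other 4, a contrast that was not used to choose the genes, no copy passed limma's test with genotype in the model. Of the 17391 genes 28.0% did, 11.3% being higher in N22 and 16.7% lower. Srp54a and Srp54b had unadjusted p-values under 0.05 there, as 40.0% of all genes did. Srp54b averaged 1524 normalised counts in the N22 libraries and 1309 in the others (log2 difference 0.20, SE 0.09, limma adjusted p = 0.104). Srp54a averaged 1886 in N22 and 2131 in the others (−0.19, SE 0.08, adjusted p = 0.112). Srp54c averaged 1281 in N22 and 1417 in the others (−0.16, SE 0.09, adjusted p = 0.191), and the sum 4691 in N22 and 4857 in the others (−0.05, SE 0.06, adjusted p = 0.548). These averages put together a wild-type and a Top2b-low library that differ. Without Top2b-low replicate 3 Srp54a passed (−0.35, adjusted p = 0.0476), and without wild type replicate 3 its log2 difference was −0.02 (adjusted p = 0.899). The hypothalamic markers were lower on average in Top2b-low mice, 5 of 5 of them, but not evenly over the libraries. Their summed level was 973, 86.2 and 56.2 in Top2b-low replicates 1 to 3, against 1063, 1241 and 1648 in wild type. Top2b-low replicate 1 was thus near wild type in these markers, while its Srp54b count, 1147, lay between those of the other Top2b-low libraries. The part of these markers in the result was not tested.

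The other genes of the particle and its receptor had small differences that lay within the spread between mice. None of the 5 other protein genes of the particle and neither of the 2 receptor genes passed limma's test (adjusted p = 0.99997 each), nor did any of the 17391 genes fitted (0.0%). Top2b was among these, so a gene that did not pass is not shown to be unchanged. Srp9 and Srp14, which together bind the Alu domain of the RNA and slow the ribosome, averaged 1147 ± 187 and 1007 ± 177 normalised counts in Top2b-low mice, against 1222 ± 39.2 and 1078 ± 182 in wild type (SD, n = 3 each). Srp19, which prepares the RNA for SRP54, averaged 566 ± 95.9 in Top2b-low and 574 ± 36.9 in wild type. Srp68 and Srp72, which form a heterodimer on the RNA, averaged 1343 ± 57.1 and 2133 ± 97.1 in Top2b-low mice, against 1326 ± 18.9 and 2107 ± 49.6 in wild type. Their log2 fold changes were both 0.02, with SEs of 0.07. The receptor genes Srpra, its GTPase subunit, and Srprb, its membrane anchor, had log2 fold changes of −0.07 (SE 0.08) and −0.05 (SE 0.11).

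Further along the route to the ER, no gene of the lists passed either. The lists held 47 genes, of which 46 were matched and fitted, and limma called 0 of them, beside 0.0% of all genes fitted. At an unadjusted p under 0.05 limma left 0 of the 46, beside 1.51% of all genes, and from the recovered reads edgeR's quasi-likelihood test and DESeq2 each called 0 of the 46 and 0 of all genes, of which 250 and 168 had an unadjusted p under 0.05. The median log2 fold change of the 46 was −0.05, with 34 below 0, and that of all fitted genes was −0.0021. For 3 of the 46 the groups did not overlap, all with Top2b-low lower and 0 higher, beside 3.04% and 2.7% of all genes, or 5.74% in either direction. They were Tram1l1, a relative of the translocating chain protein TRAM (log2 fold change −0.17, SE 0.10), the signal peptidase subunit Spcs2 (−0.15, SE 0.09) and Get3, the ATPase that targets tail-anchored proteins (−0.16, SE 0.09). Tram1l1 had 608, 607 and 608 normalised counts in Top2b-low mice, against 613, 678 and 767 in wild type, so that its groups nearly touched.

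Of the 13 translocon genes, 3 had a log2 fold change above 0 and 10 below. Ssr3 and Ssr4, subunits of the translocon-associated complex, were at −0.08 (SE 0.08) and −0.13 (SE 0.16), and Tram1 at −0.15 (SE 0.16). In the signal peptidase list 1 of 5 was above 0. Its catalytic subunits Sec11a and Sec11c were at −0.08 (SE 0.13) and −0.14 (SE 0.11), and Spcs3 at 0.02 (SE 0.08). Of the 11 oligosaccharyltransferase genes, which add sugar chains to entering proteins, 2 were above 0, with Ost4 at −0.20 (SE 0.19), Rpn1 at −0.09 (SE 0.12), Dad1 at −0.07 (SE 0.08) and Ddost at −0.06 (SE 0.08). Among the 8 genes of other targeting routes, 4 were above 0 and 4 below, the receptor subunit Get1 being at −0.14 (SE 0.10), the chaperone Bag6 at −0.04 (SE 0.07) and Ubl4a at −0.02 (SE 0.08). Naca and Btf3, the subunits of the complex that guards nascent chains against mistargeting, were at −0.09 (SE 0.09) and −0.01 (SE 0.13). Between the N22 and the other libraries, 8 of the 46 were called higher and 9 lower, beside the 11.3% and 16.7% of all genes.

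**Figure D4:**
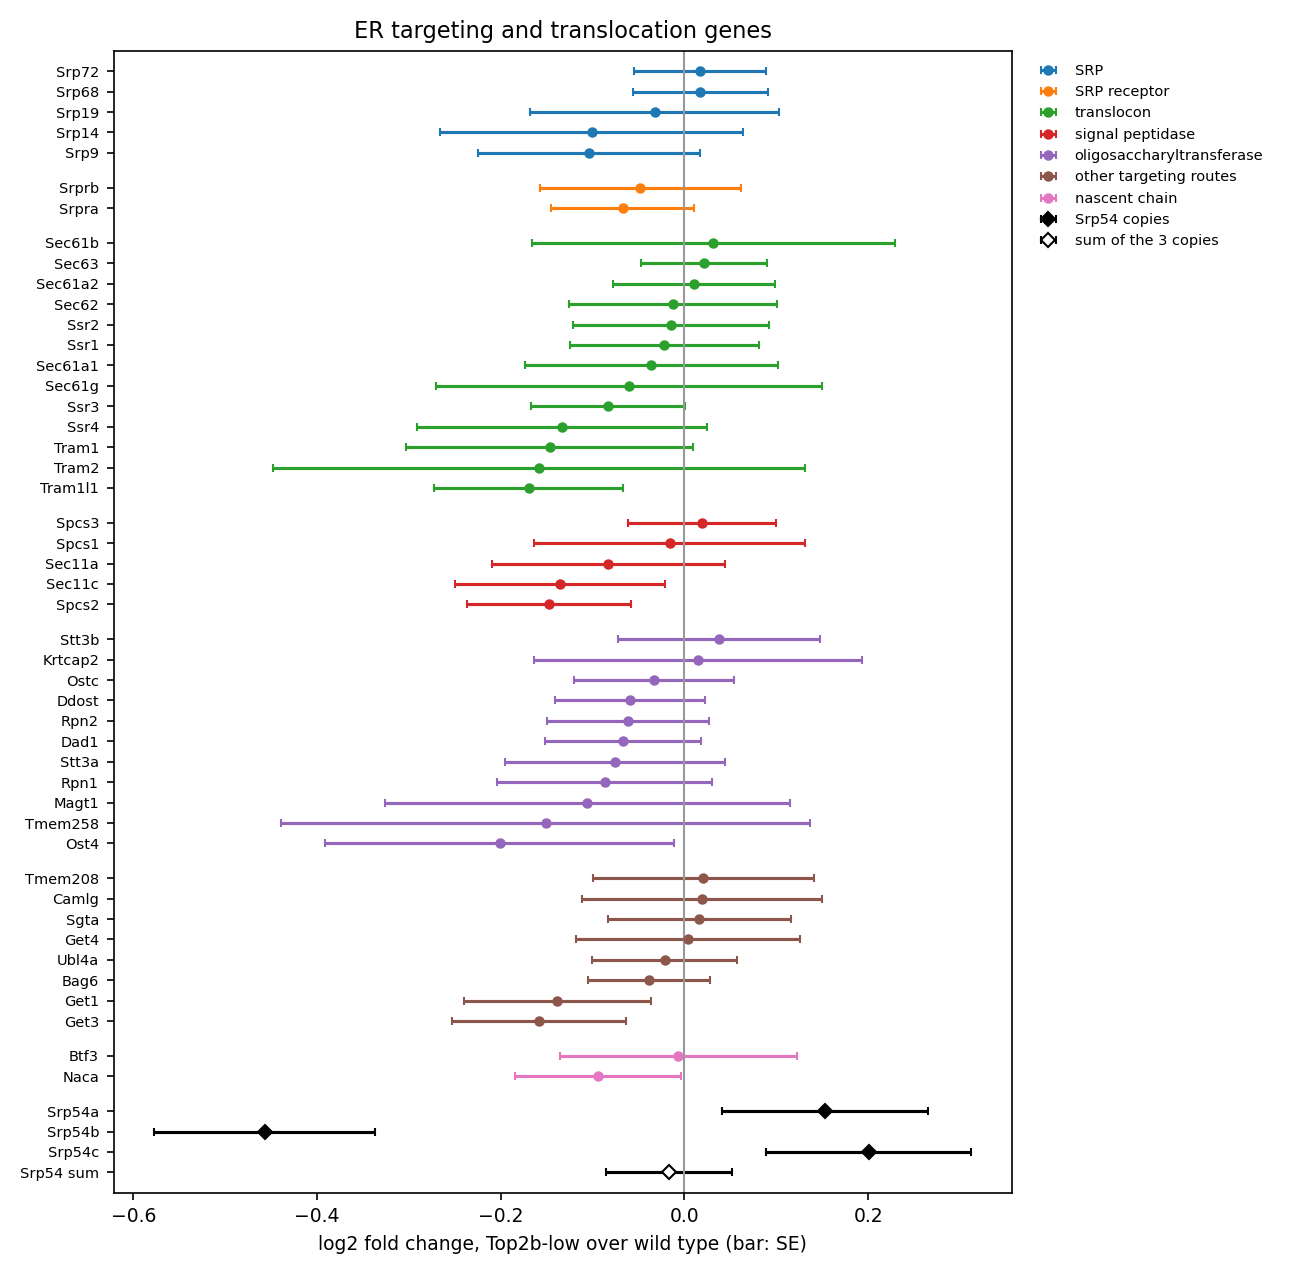
Log2 fold change of Top2b-low over wild type with its SE for the genes of ER targeting and translocation, by list, with the Srp54 copies (filled diamonds) and their sum (open diamond) at the bottom. The 46 list genes run from −0.20 to 0.04 and the sum lies at −0.02, while Srp54b, at −0.46, was chosen for its low value in this contrast.

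The genes around the copies pointed in both directions, 3 of those fitted being above 0 and 8 below. In the GENCODE vM21 order, 6 genes lie between the copies and the 10 nearest on each side were added. None of the 11 that were fitted passed limma's test (adjusted p = 0.99997 each), beside 0.0% of all genes, and 1, Nfkbia, had an unadjusted p under 0.05, beside 1.51% of all genes. Fam177a, the coding gene that follows Srp54a, had 1062, 1019 and 1180 normalised counts in Top2b-low mice, against 1120, 1172 and 1069 in wild type, with overlapping groups and a log2 fold change of −0.05 (SE 0.09). Its annotated duplicate behind Srp54b, 1700047I17Rik2, is identical to it over the 3863 bases they share and was listed at 0 in all 6 libraries. The pseudogenes Gm2436 and Gm2446, which follow these, were also identical over the aligned 771 bases. Gm2446 had 44.3, 49.8 and 31.4 normalised counts in Top2b-low mice, against 53.4, 52.6 and 29.9 in wild type, while Gm2436 was listed at 0 in 5 libraries and at 5.32 in Top2b-low replicate 3. In both duplicate pairs nearly all reads were thus listed under a single copy, unlike those of Srp54.

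Farther out, Ppp2r3c, a regulatory subunit of protein phosphatase 2A and the nearest fitted gene after Srp54c, had a log2 fold change of 0.06 (SE 0.09). 1110008L16Rik was at 0.11 (SE 0.15), the proteasome subunit Psma6 at −0.10 (SE 0.13) and Ralgapa1, a subunit of a Ral GTPase-activating complex, at 0.10 (SE 0.09). On the other side 2700097O09Rik was at −0.16 (SE 0.12), the chromatin remodelling subunit Baz1a at −0.18 (SE 0.27), the muscle-type cofilin Cfl2 at −0.17 (SE 0.15) and the sorting nexin Snx6 at −0.04 (SE 0.10). Nfkbia, the NF-κB inhibitor, had 381, 246 and 306 normalised counts in Top2b-low mice, against 386, 436 and 391 in wild type (log2 fold change −0.40, SE 0.16, unadjusted p = 0.0445). Its groups did not overlap, with Top2b-low lower, as in 3.04% of all genes fitted. Top2b-low replicate 1 and wild type replicate 1 were nearly equal in it.

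**Figure D5:**
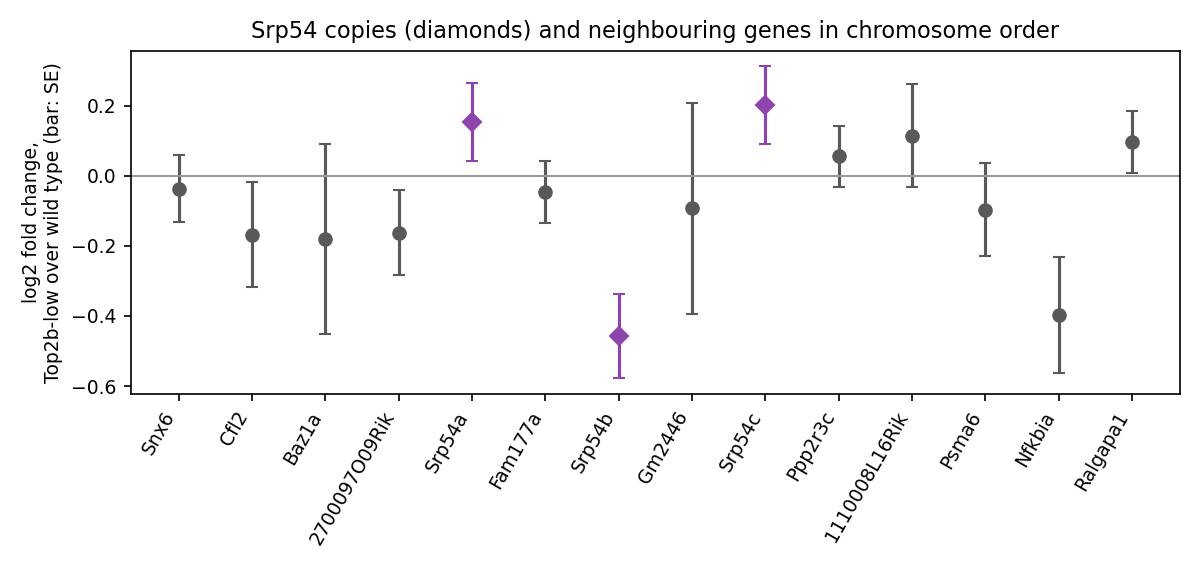
Log2 fold change of Top2b-low over wild type with its SE for the Srp54 copies (purple diamonds) and the fitted genes around them (grey), in chromosome order. The copies point in different directions, while Fam177a and Gm2446 between them lie near 0.

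The copies also differed in which other genes varied like them. Likeness was measured as the root mean square difference between log2 levels, each centred on the gene's own mean, over the 6 libraries and among 8420 named genes with a mean above the median. Srp54c was at 0.04 from Srp54a, and only 1 of the 8420 genes was nearer to Srp54a. That gene was Mir124a-1hg, a host transcript of the neuronal microRNA miR-124, at 0.03, and after Srp54c came Hs3st1, a heparan sulfate sulfotransferase (0.05), and Jph1, a junctophilin of membrane contacts (0.05). With the copies left out, these 3 genes were also the nearest to Srp54c. Srp54b was at 0.40 from Srp54a and 0.41 from Srp54c. The genes nearest to Srp54b were Minar2 (0.11), Lfng, a glycosyltransferase that modifies Notch (0.12), and Rapgef3, a cAMP-activated exchange factor (0.13). Minar2 had 695, 646 and 760 normalised counts in Top2b-low mice, against 856, 827 and 1155 in wild type. Srp54b was chosen for its low values in Top2b-low mice of these same libraries, so the genes nearest to it tend to be low there too. Nothing is read from the genotype differences of Minar2, Lfng and Rapgef3. The sum was nearest to Bnip2 (0.01), Aktip (0.02) and Ing2 (0.02), genes that varied as little as it did, the SD of the sum over the libraries being 0.04 on the log2 scale.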

How the data were processed

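Polyadenylated RNA of 6 brains was sequenced from stranded libraries, per the labels' protocols. The table that the authors deposited gives each gene's normalised count (unit signal) in each library; the submitters' processing notes name RSEM and mm39. The sources used here do not give versions, aligner, annotation, read length or use of strand. All deposited values were whole multiples of their library's smallest value above 0 (100% of values, tolerance 1e-06 reads), so counts could be recovered, and the factors divided by ran from 0.798 to 1.69. Total reads were 16963067 to 35246703, and 3 reads equal 1.77 to 3.76 normalised counts. Symbols came from a reference table of gene names that matched 51498 identifiers and at least 99.4% of reads.

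Log2(normalised count + 1) was taken for the 17391 genes whose mean reached 10 and fitted with limma 3.58.1 (intensity trend, two-sided, Benjamini-Hochberg over all genes, threshold 0.05) in R 4.3.3. Fold changes on this scale understate those of low genes. No covariate entered the genotype fit, and genotype entered the N22 fit. On the recovered reads edgeR 4.0.16 and DESeq2 1.42.0 were alternatives, beside a pseudocount of 5, no filter, TMM scaling, the replicate block, an N22 term and the omission of libraries. The fit was tested on simulated counts that held no difference between N22 and the other libraries. The real libraries held one, so that test does not cover it. The series text gives n as mice, so each replicate was treated as its own mouse, and no 2 libraries of a genotype agree within sampling noise (chi-square per degree of freedom 4.27 to 37.4). Replicate numbers were taken as pairs in the replicate block alone, so the SEs given with the results do not use them. The deviations of same-numbered libraries correlated at 0.33, 0.35 and 0.68, each above 0.1. This pairing comes from the data alone, and replicates 1 and 2 also correlated crosswise (0.24 and 0.37), so the data do not single out their pairing.

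Members and lists were chosen with earlier results of these data known. Named were the copies, Top2b, all genes of the particle and its receptor, up to 4 of each other list by unadjusted p, the neighbours fitted and the 3 nearest in likeness. Markers and genes with non-overlapping groups were named beside them. Listed symbols newer than the table were looked up by their older names.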

Additional observations from a re-analysis of the deposited data

How the results depend on the processing

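Over 14 alternatives the log2 fold change of Srp54b stayed between −0.58 and −0.35, of Srp54a between 0.04 and 0.25, of Srp54c between 0.09 and 0.28 and of the sum between −0.06 and 0.01. With single replicates left out, these ranges were −0.58 to −0.35, 0.04 to 0.25, 0.09 to 0.28 and −0.06 to 0.01, with the sum above 0 only without wild type replicate 1. The replicate block left each value as it was (−0.46 for Srp54b, 0.15 for Srp54a, 0.20 for Srp54c, −0.02 for the sum, −9.08 points for the share of Srp54b), since each number holds 1 mouse of each genotype, and it changed no call. With the block the SEs were smaller, at 0.077 for Srp54b, 0.076 for Srp54a, 0.083 for Srp54c and 0.052 for the sum. The difference in the share of Srp54b was −9.95 points with reads pooled and −12.3 to −5.68 points with single replicates left out. In the N22 pair alone, a setting chosen after seeing the data, it was −15.0 points, against −6.14 in the other 4 libraries. The N22 difference ran from −0.35 to −0.02 for Srp54a, 0.10 to 0.31 for Srp54b, −0.33 to 0.01 for Srp54c and −0.12 to 0.02 for the sum with single replicates left out; without wild type replicate 3 that of Srp54a was −0.024, and those of Srp54c and the sum turned to 0.012 and 0.016, for which the cause was not tested. The counts of genes called ranged from 0 to 1 between genotypes, the 1 without Top2b-low replicate 1, and from 3488 to 5132 between N22 and other libraries with all libraries in, or from 1702 to 4574 with 1 left out, the lowest (1702 and 1954) with 1 N22 library left, which is then assumed to vary like the others. No list gene or neighbour was called under any of the 14. Depth sets the counting interval of each share, which takes the copy of each read as known. The copies differ at few bases, and the effect of that on the split was not tested.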
